A study of Mus musculus with 31 samples.

Results

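The RNA-seq libraries of astrocytes sorted from mice titled SPF 2X CYTOKINE were compared with those titled SPF 2X PBS. The members were chosen by these titles: 3 libraries labelled 2X cytokine and 3 labelled 2X PBS, which is 6 of the 12 RNA-seq libraries and of the 31 samples in the series. The mice were C57Bl/6 females aged 10 weeks per their labels, while the protocol gives 10 to 12 weeks. They received IL-1β at 100 ng/mL with TNF-α at 50 ng/mL, or PBS alone, through a pair of 5 µL injections into the lateral ventricles, the fluid-filled spaces of the forebrain. Every animal of these 6 libraries was injected a second time on day 7, so surgery and repeated injection are shared by both groups. Sorting followed after 18 to 24 hours. A description label on the cytokine libraries mentions TNF-α alone, no source used here names the sort markers, and no label says whether a library is 1 animal, so the p-values measure the spread between these libraries, which may be technical. ATAC-seq was also done, and its 19 samples were not used here. Library totals ran from 2330828 to 5521679 estimated counts, and 3 counts correspond to 0.543 to 1.29 CPM, the count scaled to library size, in a library.

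Astrocytes are glial cells that clear neurotransmitter, supply metabolites to neurons and line blood vessels with their endfeet. IL-1β acts through the receptor Il1r1 and TNF-α mainly through Tnfrsf1a, and both lead to nuclear entry of NF-κB, a family of transcription factors that switch on chemokines, complement genes and adhesion molecules. STAT factors, driven by interferons and by cytokines that share the receptor subunit gp130, induce antiviral genes, antigen presentation and, as a brake, Socs3.

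The direction of the known target genes went against the labels. Gfap, the astrocyte intermediate filament that rises in reactive cells, stood at 1161, 1069.8 and 1113 CPM in the 2X PBS libraries and at 154, 123 and 116 CPM in those labelled 2X cytokine. Lcn2, which encodes the siderophore-binding protein lipocalin 2, stood at 580.1, 373 and 433 CPM against 15.4, 2.32 and 1.24 CPM. The groups did not overlap for either gene, and the libraries labelled PBS held the higher level. The edgeR test placed 21 of 36 tested astrocyte reactivity genes lower in the libraries labelled 2X cytokine and 0 higher, with 25 at an unadjusted p under 0.05, and DESeq2 also placed 0 higher. An exchange of labels was not tested, and every direction below is that of the libraries as labelled. In the 1X libraries, injected on day 7 only, Lcn2 on the scale of the 12 libraries stood at 5.33, 1076 and 776 CPM in those labelled PBS and at 797, 11.5 and 3.85 CPM in those labelled cytokine. The first library of each 1X group therefore stood with the opposite label's other two. These libraries enter the comparison with the 1X groups at the end and any fit of all 12 libraries, not the fit of the 6 libraries.

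The label of sorted astrocytes was checked against markers of 14 cell types. The 10 astrocyte markers summed to 17879 to 20017 CPM in the 2X PBS libraries and to 19699 to 23480 CPM in the 2X cytokine libraries. These sums overlapped, but they include the reactivity gene Gfap, so the overlap does not describe the other markers. Of the 10, edgeR called Gfap lower and Aldoc higher, DESeq2 called 1 lower and 2 higher, and the median log2 fold change was 0.16. Markers of other cells were present in both groups. The 12 monocyte and macrophage markers summed to 395 to 414 CPM in 2X PBS and to 89.1, 44.1 and 13.3 CPM in 2X cytokine. The 10 neutrophil markers summed to 218 to 286 CPM against 169.8, 34.1 and 10.5 CPM, and the 20 microglia markers to 1232 to 1651 CPM against 891, 1123 and 557 CPM. The test placed 5 of 8 tested monocyte and macrophage markers lower, 4 of 7 neutrophil markers and 9 of 20 microglia markers, with 0 higher in these 3 lists. DESeq2 placed 5, 2 and 7 lower and 0 higher. At an unadjusted p under 0.05 these lists held 7, 4 and 15 genes. Without 2X cytokine replicate 1 the monocyte and macrophage count was 8, and without 2X PBS replicate 2 or 3 the microglia count was 5. Leukocyte genes and the genes described below fell together, and the part of these cells in each result was not tested. In sorted bulk samples, fewer cells of a type and less RNA per cell cannot be told apart.

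**Figure D1:**
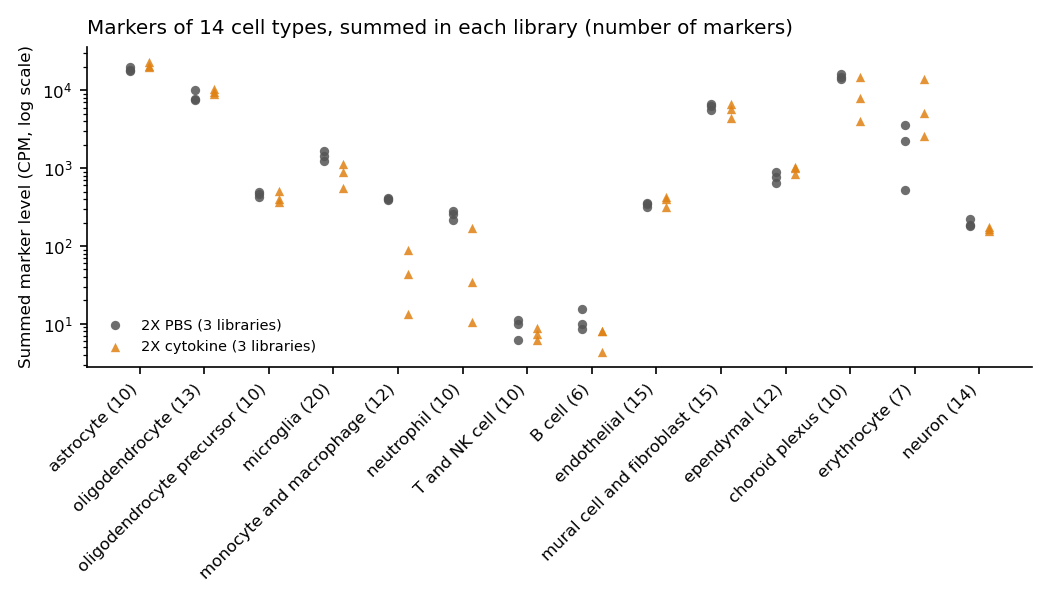
Summed level of the markers of 14 cell types in each library, in CPM on a log axis. Circles are the 3 libraries labelled 2X PBS and triangles the 3 labelled 2X cytokine. Monocyte and macrophage markers lie at 395 to 414 CPM in the first group and at 13.3 to 89.1 CPM in the second. The sums of the astrocyte markers, which include Gfap, overlap.

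Choroid plexus and erythrocyte markers differed between single libraries more than between groups. The 10 choroid plexus markers summed to 14141 to 16208 CPM in 2X PBS and to 4034, 8041 and 14989 CPM in 2X cytokine, and the 7 erythrocyte markers to 522 to 3633 CPM against 13819, 5131 and 2607 CPM. No member of these 2 lists was called in edgeR or DESeq2, although 6 and 7 had an unadjusted p under 0.05, and without 2X cytokine replicate 3 edgeR placed 8 choroid plexus markers lower and 7 erythrocyte markers higher. T and NK cell markers summed to at most 11.1 CPM, with Cd3e and Gzmb at 0. B cell markers summed to 8.61 to 15.5 CPM in 2X PBS and to 4.33 to 8.13 CPM in 2X cytokine. The neuron markers summed to 181 to 225 CPM against 154 to 175 CPM, with Slc17a7 at 0. Neither the B cell nor the neuron sums overlapped between the groups. In the edgeR fit of the 6 libraries no member of these lists was called, and DESeq2 called 1 neuron marker lower. At an unadjusted p under 0.05 stood 1 B cell and 3 neuron markers.

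Across all genes, more genes were lower than higher in the libraries labelled 2X cytokine. Of 13765 genes tested, 1065 passed an adjusted p of 0.05, which is 7.74%. Among them 731 genes (5.31% of those tested) were lower in the 2X cytokine libraries, with a median log2 fold change of -1.01, and 334 genes (2.43%) were higher, with a median of 0.56. The median over all genes tested was 0.01. An unadjusted p under 0.05 was found for 2865 of the 13765 genes, the share to set beside such counts in each list. At least 2-fold changes numbered 366 among the lower genes and 32 among the higher, and at least 8-fold changes numbered 91 and 0. The lower genes include 51 with a cytokine mean below 1 CPM, whose folds lie near the floor, against 1 higher gene with a PBS mean below 1 CPM. Over all 13765 genes tested, called or not, the groups did not overlap for 1857 genes that were lower and 1694 that were higher. In a principal component analysis the leading component (49.9% of the variance) separated the groups, from -35.4 to -24.9 in 2X PBS and from 27.9 to 34.9 in 2X cytokine. The second held 15.9% and spread the cytokine libraries from -33 to 25.8. Leaving out 2X PBS replicate 2 or 3 gave 671 or 670 genes, and the higher genes numbered 206, 139 and 180 without 2X PBS replicate 1, 2 or 3 and 194 without 2X cytokine replicate 1. A fit of all 12 RNA-seq libraries together called 5 genes: Timp1, Inmt, Tmem176a, Tspan4 and Psmb10, each lower. The same fit without both 1X libraries numbered 1, an alternative chosen after seeing the data, called 1042 genes in the 2X comparison. In limma-trend on log2(TPM + 1) 347 genes were called, and the counts of most lists below were smaller, as given with the processing alternatives. The reactivity genes C3 and Serping1 count also under complement, Cd14 under sensing, H2-D1 and H2-T23 under MHC class I and Psmb8 under proteasome genes. Gbp2, Osmr, Cp and Ptgs2, and Timp1 with Serpina3n, are likewise members of lists below, so those counts are not separate from the reactivity genes. Among cell markers, Ctss and Mmp9 count also under matrix proteases and Laptm5 under lysosome genes.

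**Figure D2:**
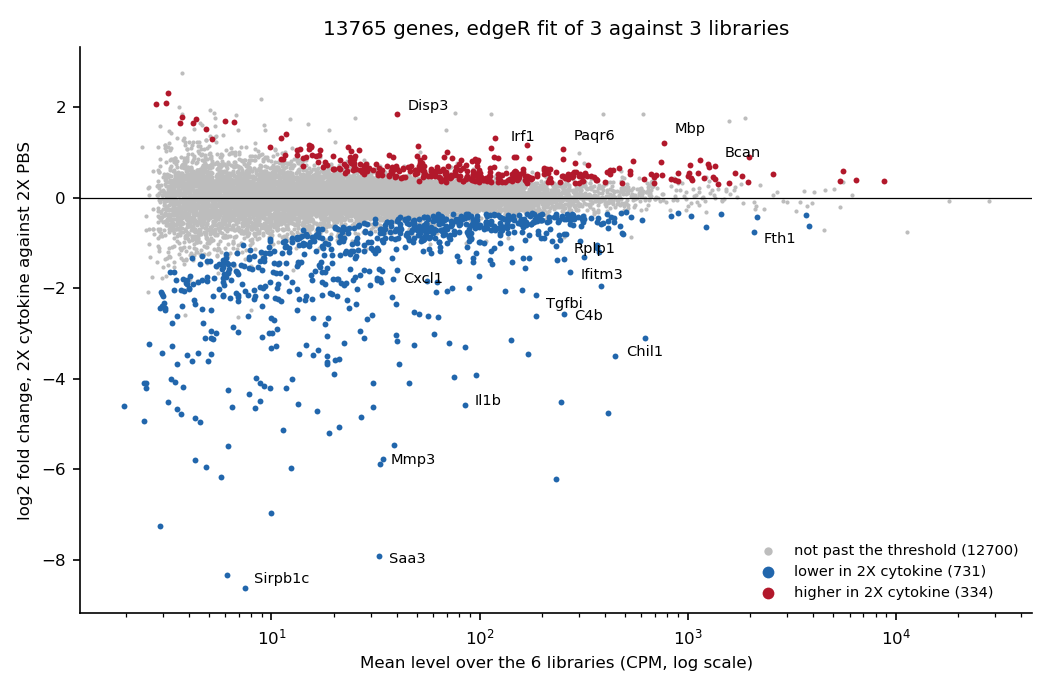
Each point is a gene, placed by its mean level over the 6 libraries (CPM, log axis) and its log2 fold change in 2X cytokine against 2X PBS. Blue points are the 731 genes lower and red points the 334 genes higher at an adjusted p of 0.05; the lower genes reach -8.61 on the log2 scale, while 3 of the higher genes exceed 4-fold.

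The receptors for the injected cytokines were themselves lower. Of 24 tested IL-1 and TNF receptor and adaptor genes, 6 were lower and 0 higher, while DESeq2 called 4 lower and 0 higher, 8 had an unadjusted p under 0.05, and the median log2 fold change was -0.20. Tnfrsf1a, the main TNF receptor, stood at 179.6, 142 and 151 CPM in 2X PBS and at 75.2, 73.2 and 59 CPM in 2X cytokine (log2 fold change -1.18, SE 0.12, adjusted p = 9.05e-05). Tnfrsf1b, the second TNF receptor, stood at 26.7, 29.4 and 25.9 CPM against 3.67, 4.65 and 4.64 CPM (-2.66, SE 0.21, adjusted p = 8.3e-06). For both receptors each 2X PBS library lay above each cytokine library. Il1r2, a decoy receptor that binds IL-1 without signalling, stood at 95.2, 71.9 and 59.3 CPM against 3.3, 1.16 and 0.618 CPM (-5.47, SE 0.33, adjusted p = 1.33e-06). The signalling receptor Il1r1 stood at 15.5, 18.4 and 15.1 CPM against 8.43, 9.29 and 8.96 CPM, a smaller difference (-0.89, SE 0.21, adjusted p = 0.0196). Il1r1 did not pass when 2X PBS replicate 2 or 2X cytokine replicate 1 was left out, nor in DESeq2. It also did not pass with a replicate block, an effective length offset or limma-trend on either TPM scale. Among the 24 genes the groups did not overlap for 8 that were lower and 4 that were higher, against 1857 and 1694 of 13765 over all genes tested. Leukocyte markers fell in the same libraries, and their part in these values was not tested.

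Genes of the NF-κB family moved in both directions. Of 20 tested subunit and inhibitor genes, 5 were lower and 1 higher, and the median was -0.39. The lower genes include the subunits of the non-canonical branch, Nfkb2 and Relb. Nfkb2 stood at 49.1, 43.5 and 44.8 CPM in 2X PBS and at 24.2, 25.6 and 23.5 CPM in 2X cytokine (-0.90, SE 0.13, adjusted p = 0.00086). Relb stood at 30.1, 28.5 and 39.4 CPM against 11.7, 18.2 and 17.9 CPM (-1.02, SE 0.20, adjusted p = 0.00736). Neither gene's groups overlapped, but the Relb call did not hold in limma-trend on either TPM scale or with effective length as an offset. Rela, the p65 subunit of the canonical branch, did not pass the test, at 70.6, 65 and 73.1 CPM against 72.2, 75.9 and 65.8 CPM. Nfkbiz, a nuclear regulator of NF-κB that is itself an inflammatory target, was higher in every cytokine library, at 178, 176 and 181 CPM against 391, 334 and 243 CPM (0.85, SE 0.14, adjusted p = 0.00294). The count of lower genes was 3 when any of PBS replicates 2 and 3 or cytokine replicates 1 and 3 was left out.

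Some inducible regulators were higher. Irf1, a transcription factor of the interferon and TNF responses, stood at 89.6, 102 and 116 CPM in 2X PBS and at 198, 221 and 153 CPM in 2X cytokine (0.89, SE 0.14, adjusted p = 0.00175). Socs3, the feedback inhibitor of gp130 and JAK-STAT signalling, stood at 236, 259 and 255 CPM against 429, 445 and 366 CPM (0.72, SE 0.10, adjusted p = 0.000694). Atf3, a stress-induced transcription factor, stood at 342, 369.6 and 373 CPM against 571, 648 and 497 CPM (0.66, SE 0.11, adjusted p = 0.00227). The lowest cytokine library lay above the highest PBS library for all 3 genes. Atf3 is also 1 of 25 tested immediate-early genes, a class that cell dissociation can induce. In that list 3 were higher (Atf3, Egr1 and Fosb) and 1 lower (Btg1), with 9 at an unadjusted p under 0.05 and a median of 0.10, and DESeq2 called 4 higher and 0 lower. The higher count was 5 without 2X cytokine replicate 3 and 1 without 2X PBS replicate 1 or 2 or 2X cytokine replicate 1 or 2. The part of dissociation in these values was not tested. Stat3, the transcription factor that Socs3 restrains, moved the other way, from 295, 284 and 299.8 CPM to 161, 151 and 141 CPM (-0.96, SE 0.09, adjusted p = 3.7e-05). Osmr, the receptor for the gp130 cytokine oncostatin M, stood at 112, 96.1 and 124 CPM against 49.1, 53.4 and 33.7 CPM (-1.29, SE 0.16, adjusted p = 0.000337). Among 25 tested gp130 and JAK-STAT genes, 3 were lower and 1 higher, with a median of -0.31, and without 2X cytokine replicate 2 the lower count was 5. Of 19 tested interferon regulatory and other inflammatory transcription factors, 4 were lower and 2 higher, with a median of -0.34 and 7 lower without 2X cytokine replicate 2. Spi1, the myeloid factor PU.1 that marks microglia and leukocytes, had the lowest value of this list, at 11.6, 7.95 and 8.73 CPM against 1.1, 0.774 and 0.618 CPM (-3.44, SE 0.43, adjusted p = 0.000388).

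Promoter sequences of some genes described here follow. The 5 stretches shown run from 250 bases before to 50 bases after the start of the gene, 5′ to 3′ on the gene's strand, in RefSeq sequence of GRCm38.p6. They were picked by hand to set lower genes (Cxcl1, Nfkb2, B2m) beside higher ones (Irf1, Socs3) and show nothing about other promoters. RefSeq has 2 further starts of Nfkb2, both with a κB match, and 1 of Irf1 with 0 matches, which are not printed. Capitals mark matches on either strand to the κB motif, to the STAT motif TTCNNNGAA and to the interferon-stimulated response element (ISRE) core GAAANNGAA. The Cxcl1 promoter lies at chr5:90890995-90891294 on the plus strand, Nfkb2 at chr19:46304487-46304786 plus, B2m at chr2:122147437-122147736 plus, Irf1 at chr11:53769764-53770063 plus and Socs3 at chr11:117969317-117969616 minus.
Cxcl1: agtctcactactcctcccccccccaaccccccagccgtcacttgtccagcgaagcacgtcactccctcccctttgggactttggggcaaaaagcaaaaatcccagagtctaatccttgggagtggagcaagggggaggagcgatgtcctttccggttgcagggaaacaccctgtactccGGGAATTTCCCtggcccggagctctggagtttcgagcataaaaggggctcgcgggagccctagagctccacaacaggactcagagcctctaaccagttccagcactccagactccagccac
Nfkb2: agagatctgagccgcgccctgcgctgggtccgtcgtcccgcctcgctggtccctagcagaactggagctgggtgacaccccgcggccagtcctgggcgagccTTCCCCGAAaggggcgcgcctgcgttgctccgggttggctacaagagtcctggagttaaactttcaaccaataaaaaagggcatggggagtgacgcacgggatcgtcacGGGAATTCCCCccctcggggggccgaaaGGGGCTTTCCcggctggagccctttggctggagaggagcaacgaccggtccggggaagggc
B2m: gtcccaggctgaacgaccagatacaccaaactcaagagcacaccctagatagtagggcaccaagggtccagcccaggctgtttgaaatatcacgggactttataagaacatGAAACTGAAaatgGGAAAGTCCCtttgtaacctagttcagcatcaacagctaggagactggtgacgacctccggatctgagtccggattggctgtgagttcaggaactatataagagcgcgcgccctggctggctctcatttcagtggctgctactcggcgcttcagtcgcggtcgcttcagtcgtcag
Irf1: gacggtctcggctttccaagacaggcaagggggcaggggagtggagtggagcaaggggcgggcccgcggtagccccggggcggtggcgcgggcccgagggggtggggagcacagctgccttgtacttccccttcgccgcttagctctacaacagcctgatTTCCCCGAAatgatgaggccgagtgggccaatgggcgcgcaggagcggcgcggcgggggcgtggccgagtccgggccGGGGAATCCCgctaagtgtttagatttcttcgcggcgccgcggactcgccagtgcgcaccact
Socs3: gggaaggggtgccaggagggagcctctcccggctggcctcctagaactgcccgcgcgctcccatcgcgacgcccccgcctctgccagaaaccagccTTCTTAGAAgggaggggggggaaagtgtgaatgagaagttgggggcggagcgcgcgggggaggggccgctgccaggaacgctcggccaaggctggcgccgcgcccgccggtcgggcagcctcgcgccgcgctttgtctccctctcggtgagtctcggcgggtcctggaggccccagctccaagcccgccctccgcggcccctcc
The capitals of Cxcl1 are a κB match, those of Nfkb2 a STAT match followed by κB matches, those of B2m an ISRE match followed by a κB match, those of Irf1 a STAT and then a κB match, and those of Socs3 a STAT match. A match is a description of letters and does not show that a factor binds there.

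Over all promoters of this length, a κB match was present in 11.1% of the 531 lower genes with a promoter sequence, in 6.95% of the 259 higher genes and in 6.12% of the 10437 genes tested. An ISRE core was present in 16%, 6.56% and 8.58%, and the AP-1 motif TGANTCA in 10.7%, 5.41% and 6.27%. The STAT motif was present in 9.79%, 6.18% and 8.18%. Matches to the cyclic AMP response element TGACGTCA were present in 2.26%, 1.93% and 3.55%, and to the E-box CACGTG in 11.1%, 6.95% and 11.5%. Both strands were searched, matches to different motifs may overlap, and no test was made of these shares.

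Chemokines and cytokines were lower as a group. Of 30 tested, 14 were lower and 0 higher, as in DESeq2, 20 had an unadjusted p under 0.05, and the median log2 fold change was -1.05 against 0.01 for all genes tested. Ccl2, a monocyte attractant, stood at 38.3, 29.6 and 30.7 CPM in 2X PBS and at 4.4, 3.87 and 3.4 CPM in 2X cytokine (-3.06, SE 0.22, adjusted p = 3.75e-06). Cxcl1, a neutrophil attractant with the κB match shown above, stood at 55.1, 61.4 and 61.7 CPM against 20.5, 20.1 and 11.4 CPM (-1.80, SE 0.18, adjusted p = 6.5e-05). Its neighbour Cxcl2 stood at 68.9, 49 and 55.4 CPM against 4.77, 3.87 and 1.55 CPM (-4.10, SE 0.27, adjusted p = 2.04e-06). Each of these attractants was lower in every cytokine library. The transcript of the injected cytokine IL-1β, Il1b, stood at 199, 145 and 144 CPM against 9.17, 10.1 and 1.85 CPM (-4.58, SE 0.30, adjusted p = 1.98e-06). Tnf and Il6, named after their values were seen, were also lower, at 32.5 to 40.5 against 9.89 to 20.1 CPM and at 8.18 to 15.9 against 2.78 to 4.26 CPM. The call of Tnf did not hold without 2X PBS replicate 2. Il1b and Ccl2 are also made by leukocytes, whose markers fell in the same libraries.

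Many complement genes were lower. Of 18 tested complement genes and regulators, 12 were lower and 0 higher, as in DESeq2, 14 had an unadjusted p under 0.05, and the median was -1.09. The lower genes include C3 and Serping1 of the reactivity list and the microglia markers C1qa, C1qb and C1qc. C4b, the mouse C4 gene, stood at 436, 467 and 407 CPM in 2X PBS and at 70.8, 76.7 and 74.5 CPM in 2X cytokine (-2.56, SE 0.10, adjusted p = 2.77e-08). C1ra, a protease of the C1 complex, stood at 127, 88 and 111 CPM against 14.3, 25.6 and 12.7 CPM (-2.64, SE 0.22, adjusted p = 1.37e-05). An inhibitor was lower too: Serping1, the C1 inhibitor, stood at 236, 222 and 232 CPM against 86.9, 112 and 76.6 CPM (-1.33, SE 0.12, adjusted p = 3.56e-05). The spread within each group was small beside these differences. Outside this list, Saa3, an acute phase serum amyloid, stood at 62.9, 72.3 and 61.1 CPM against 0.367, 0.387 and 0 CPM, which is 2 counts in all in the cytokine libraries (adjusted p = 3.74e-08). Chil1, the secreted chitinase-like protein YKL-40 of activated astrocytes, stood at 1018, 659 and 801 CPM against 86.9, 68.5 and 63.7 CPM (-3.50, SE 0.17, adjusted p = 2.96e-07). The groups did not overlap for either gene.

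Sensors of microbial products were lower, with 9 of 19 tested lower and 0 higher, while DESeq2 called 8 lower and 0 higher, 10 at an unadjusted p under 0.05 and a median of -0.97. Cd14, the co-receptor for lipopolysaccharide, stood at 137, 116 and 132 CPM in 2X PBS and at 17.6, 18.2 and 6.8 CPM in 2X cytokine (-3.20, SE 0.22, adjusted p = 3.38e-06). Tlr2, Nlrp3, Sting1 and Unc93b1 had log2 fold changes of -1.88, -1.63, -1.41 and -0.97. Without 2X PBS replicate 2 or 3 the list's count was 5. These genes are known from microglia and leukocytes, whose markers were lower in the same libraries (monocyte and macrophage markers at 89.1, 44.1 and 13.3 CPM), and their part in these values was not tested.

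Among single genes with large changes, Sirpb1c, a signal-regulatory protein, stood at 18.1, 14.5 and 12.3 CPM in 2X PBS and at 0 in every cytokine library, at least 42.6-fold lower against a floor of 3 counts over the group. Acod1, the itaconate-producing enzyme of activated macrophages, stood at 93.9, 54.6 and 54.8 CPM against 2.93, 0.387 and 0.309 CPM (-5.78, SE 0.44, adjusted p = 6.49e-06). Clec4e, a receptor for fungal and mycobacterial lipids, and Arg1, the arginine-degrading enzyme, had log2 fold changes of -4.62 (SE 0.38) and -4.64 (SE 0.52). The monocyte markers Ccr2 and Lyz2 fell by 4.56 and 3.44 on the log2 scale. The first cytokine library held the highest levels of S100a8 (35.6, 8.52 and 1.55 CPM in the 3 libraries) and Lyz2 (55.4, 25.9 and 7.11 CPM).

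The interferon response and antigen presentation were lower over several steps of the pathway. Of 31 tested interferon-stimulated genes, 11 were lower and 0 higher, as in DESeq2, 17 had an unadjusted p under 0.05, and the median was -0.62; without 2X PBS replicate 1 the count was 7. Ifitm3, which blocks virus entry in endosomes, stood at 464, 388 and 392 CPM in 2X PBS and at 114, 146 and 137 CPM in 2X cytokine (-1.65, SE 0.12, adjusted p = 3.37e-06). Its neighbours Ifitm1 and Ifitm2 had log2 fold changes of -3.96 (SE 0.24) and -1.38 (SE 0.15). Members of this gene family are near copies, so the division of reads among them is uncertain. Irf9, the DNA-binding subunit of the type I interferon transcription complex, stood at 55.1, 46.2 and 50.3 CPM against 29.3, 32.1 and 29.7 CPM (-0.72, SE 0.12, adjusted p = 0.00331). Of 11 tested guanylate-binding and immunity-related GTPases, 4 were lower and 0 higher (2 and 0 in DESeq2), with 9 at an unadjusted p under 0.05 and a median of -0.75. That count was 1 without 2X PBS replicate 1 and 2 without 2X PBS replicate 3 or 2X cytokine replicate 1 or 3.

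Of 17 tested MHC class I and peptide loading genes, 8 were lower and 0 higher, as in DESeq2, with 11 at an unadjusted p under 0.05 and a median of -0.57. H2-K1, a classical class I heavy chain, stood at 486, 490.5 and 509 CPM in 2X PBS and at 257, 252 and 211 CPM in 2X cytokine (-1.05, SE 0.10, adjusted p = 3.58e-05). B2m, the light chain of class I, stood at 291, 309.8 and 349 CPM against 157, 174 and 125 CPM (-1.06, SE 0.12, adjusted p = 0.00019). H2-D1 was lower as well (-1.30, SE 0.12), as were Tapbp, which loads peptide onto class I (-0.83, SE 0.10), and Erap1, which trims it (-0.73, SE 0.11). The groups did not overlap for any of these 5 genes. Of 31 tested proteasome genes, 4 were lower and 0 higher, as in DESeq2, with 5 at an unadjusted p under 0.05 and a list median of -0.07. That 5 of 31 is a smaller share than the 2865 of 13765 over all genes tested. The 4 lower genes were Psmb8, Psmb9 and Psmb10, the interferon-inducible catalytic subunits of the immunoproteasome, and Psme1, a subunit of its activator PA28. Psmb8 stood at 37.9, 34.9 and 29.5 CPM against 8.8, 10.5 and 8.34 CPM (-1.89, SE 0.18, adjusted p = 4.09e-05), and Psmb10 had a log2 fold change of -1.15 (SE 0.15). The other 27 members, the constitutive subunits among them, did not pass.

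**Figure D3:**
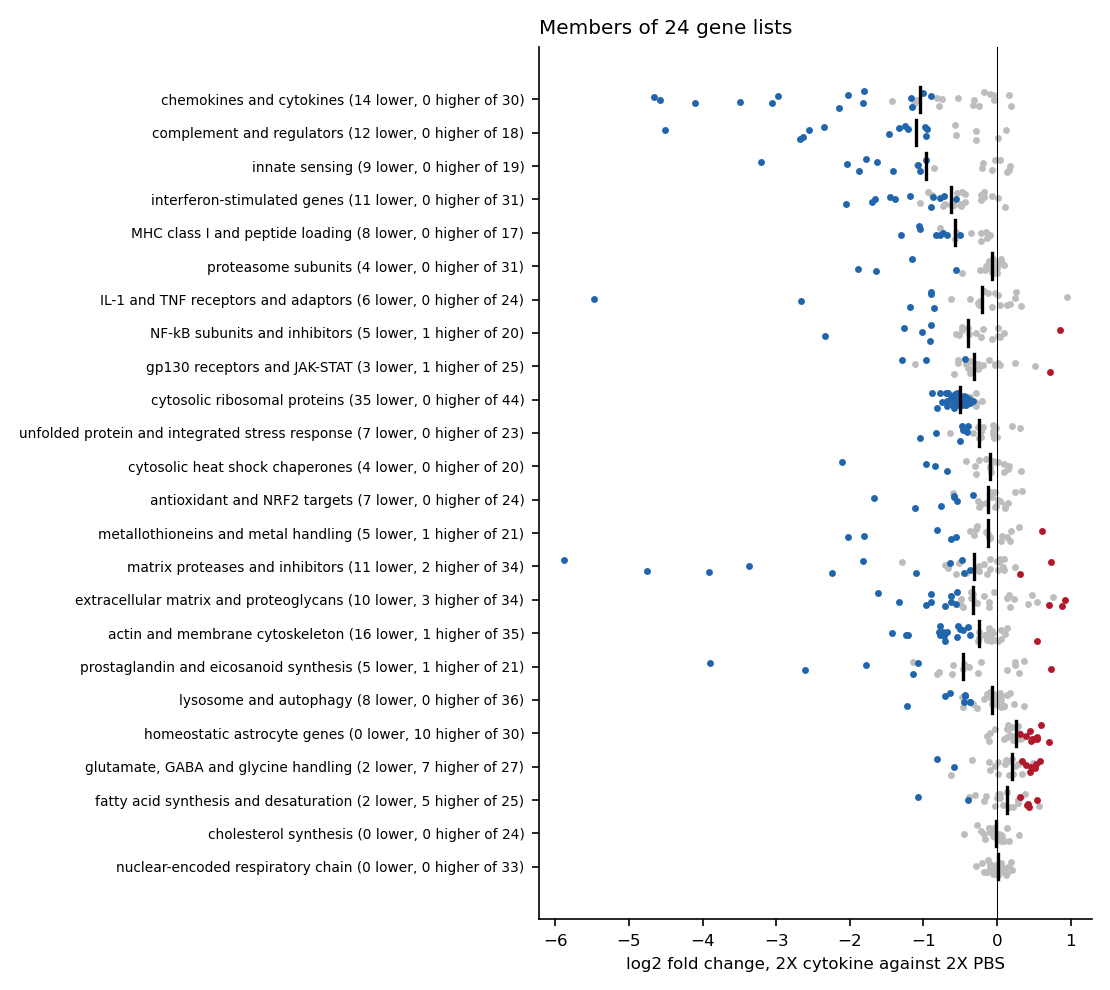
Log2 fold change of each tested member of 24 gene lists, 2X cytokine against 2X PBS. Blue members are lower and red members higher at an adjusted p of 0.05, grey members did not pass, and black bars are list medians; 35 of 44 ribosomal protein genes lie together between -0.32 and -0.88, while 4 of 31 proteasome genes stand apart from the rest of their list.

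Some lower genes lie side by side on a chromosome. Of 722 lower genes with a position, 158 (21.9%) stood in a run of lower genes with no other tested gene between them, and of 325 higher genes 27 (8.31%) did so among higher genes; a longer list gives more adjacent genes, and these shares were not tested. The longest run, at chr17:34181987-34316674 in GRCm38, held Psmb9, Tap1, Psmb8, Tap2, H2-Ab1, H2-Aa and H2-Eb1 of the mouse MHC. The H2 genes of this run encode class II chains, while the others belong to class I antigen processing. Neither the calls of these H2 genes nor those of Tap1 and Tap2 held in limma-trend on either TPM scale. Another run held Ccl2, Ccl7, Ccl11 and Ccl12 at chr11:82035571-82103400, where the Ccl12 call did not hold without 2X PBS replicate 1 or 3 or 2X cytokine replicate 1 or 3. A further run held Cxcl5, Cxcl1 and Cxcl2 at chr5:90759360-90905938. The genes of the runs were named after their values were seen. Many members of such runs are related genes, and no source used here says whether counting was stranded, so overlapping neighbours such as Psmb9 and Tap1 may share reads.

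Ribosomal protein genes were lower by a small and even amount. Of 44 tested, 35 were lower and 0 higher, while DESeq2 called 36 and 0, 42 had an unadjusted p under 0.05, and log2 fold changes ran from -0.88 to -0.20 with a median of -0.50. Rplp1, a protein of the ribosomal stalk, stood at 310.1, 323 and 358 CPM in 2X PBS and at 178, 193 and 194 CPM in 2X cytokine (-0.81, SE 0.09, adjusted p = 0.000172). Rps19, a protein of the small subunit, stood at 191, 198 and 161 CPM against 113, 100.3 and 115 CPM (-0.75, SE 0.10, adjusted p = 0.00086). Rplp0 stood at 591, 562 and 573 CPM against 382, 367 and 374 CPM (-0.62, SE 0.08, adjusted p = 0.0006). The groups did not overlap for 39 of the 44 genes, all lower, against 1857 of 13765 over all genes tested. The 44 genes summed to 9100.1 to 9571 CPM in 2X PBS and to 6621 to 6806 CPM in 2X cytokine, a range within each group far smaller than the gap between them. Of 22 tested translation factors, 5 were lower and 0 higher (4 and 0 in DESeq2), with 8 at an unadjusted p under 0.05 and a median of -0.12. Eef1a1, which brings transfer RNA to the ribosome, stood at 2530.2, 2411 and 2427 CPM against 1789, 1854 and 1869 CPM (-0.42, SE 0.08, adjusted p = 0.00794). Ribosomal protein genes have many processed copies in the genome, which makes the division of reads uncertain. In a limma-trend fit of log2(TPM + 1) the list's count was 14 of 44, and the translation factor count was 2 without 2X PBS replicate 2 or 3 or 2X cytokine replicate 3, or 3 when 2X cytokine replicate 1 was left out.

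Stress programmes were lower in part. Of 23 tested genes of the unfolded protein and integrated stress response, 7 were lower and 0 higher (6 and 0 in DESeq2), with 12 at an unadjusted p under 0.05 and a median of -0.25; without 2X PBS replicate 2 the count was 4. Manf, a secreted protein of the stressed endoplasmic reticulum, stood at 58.1, 67 and 69.5 CPM in 2X PBS and at 36.7, 34.1 and 38.9 CPM in 2X cytokine (-0.83, SE 0.12, adjusted p = 0.000918). Hspa5, the chaperone BiP, stood at 953, 916 and 967 CPM against 739, 675 and 716 CPM (-0.41, SE 0.09, adjusted p = 0.0106). Each difference was larger than the spread within either group. Of 20 tested cytosolic chaperones, 4 were lower and 0 higher (5 and 0 in DESeq2), with 8 at an unadjusted p under 0.05 and a median of -0.10. Hspa1a, an inducible Hsp70, stood at 429, 391 and 386 CPM against 181, 244 and 193 CPM (-0.96, SE 0.11, adjusted p = 0.000263); its near copy Hspa1b was lower too, and reads may be divided between them. Hspb6, a small heat shock protein, stood at 70.2, 70.5 and 69.2 CPM against 38.5, 37.6 and 40.8 CPM (-0.84, SE 0.10, adjusted p = 0.000347).

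Iron and antioxidant genes followed. Of 24 tested antioxidant genes and targets of NRF2, the factor encoded by Nfe2l2, 7 were lower and 0 higher, as in DESeq2, with 11 at an unadjusted p under 0.05 and a median of -0.12. Hmox1, heme oxygenase 1, stood at 46.1, 41.6 and 45.2 CPM in 2X PBS and at 21.3, 21.3 and 18.2 CPM in 2X cytokine (-1.12, SE 0.14, adjusted p = 0.000282). Fth1, the ferritin heavy chain that stores iron, stood at 2788, 2544 and 2507 CPM against 1481, 1681 and 1465 CPM (-0.76, SE 0.09, adjusted p = 0.00033). Nfe2l2 itself had a log2 fold change of -0.58 (SE 0.10). Of 21 tested metal handling genes, 5 were lower and 1 higher, with a median of -0.12. Cp, ceruloplasmin, the copper enzyme that oxidises iron for export, stood at 293, 231 and 246 CPM against 63.4, 77.8 and 47.9 CPM (-2.03, SE 0.15, adjusted p = 6.59e-06). The zinc transporters split: Slc39a14 and Slc39a1 had log2 fold changes of -1.81 (SE 0.24) and -0.82 (SE 0.09), while Slc39a12 stood at 355, 334 and 351 CPM against 569.8, 538 and 482 CPM (0.61, SE 0.09, adjusted p = 0.00145).

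Genes of the cell surface, matrix and cytoskeleton were lower in many cases. Of 34 tested matrix proteases and inhibitors, 11 were lower and 2 higher, with a median of -0.32. Without 2X PBS replicate 3 the lower count was 7, and the higher count was 1 in every fit that left out 1 library. Mmp3, a matrix protease induced by IL-1, stood at 85.3, 52.6 and 58.4 CPM in 2X PBS and at 0.733, 1.94 and 0.618 CPM in 2X cytokine (-5.88, SE 0.34, adjusted p = 1.08e-06). Timp1, the inhibitor of such proteases, stood at 195, 185 and 160.1 CPM against 18, 6.2 and 11.4 CPM (-3.91, SE 0.21, adjusted p = 6.19e-07), whereas its relative Timp4, named after its values were seen, was higher (0.73, SE 0.12). Mmp3 and Timp1 fell in the same libraries. Of 34 tested matrix genes, 10 were lower and 3 higher, with a median of -0.32 and 6 lower without 2X PBS replicate 3. Dcn, a small proteoglycan of fibroblasts and vessels, stood at 227, 236 and 276 CPM against 118, 100.3 and 76.6 CPM (-1.33, SE 0.14, adjusted p = 0.000101). The 15 mural cell and fibroblast markers, which include Dcn, summed to 5661 to 6663 CPM in 2X PBS and to 4404 to 6633 CPM in 2X cytokine. Of these 15 markers 5 were lower (Dcn, Lum, Kcnj8, Col3a1 and Rgs5) and 0 higher in edgeR, with 8 at an unadjusted p under 0.05, against 2 lower and 0 higher in DESeq2. Without single libraries that count ran from 2 (2X PBS replicate 3) to 9 (2X cytokine replicate 2), and it was 3 without 2X PBS replicate 1 or 2. Rgs5 and Col3a1 were named after their values were seen. Dcn, Lum and Col3a1 count under both lists, and the part of these cells in the matrix values was not tested. Tgfbi, a secreted matrix protein induced by TGF-β, stood at 287, 322 and 352 CPM against 59, 58.9 and 39.9 CPM (-2.62, SE 0.14, adjusted p = 6.19e-07).

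Of 35 tested actin and membrane cytoskeleton genes, 16 were lower and 1 higher, with a median of -0.25. DESeq2 called 14 lower and 0 higher. In fits that left out 1 library the higher count was 0, except without 2X cytokine replicate 3. Arpc1b, a subunit of the actin-branching Arp2/3 complex, stood at 216, 199 and 212 CPM in 2X PBS and at 73.3, 86 and 73.9 CPM in 2X cytokine (-1.42, SE 0.10, adjusted p = 2.89e-06). S100a11, a calcium-binding partner of annexins, stood at 81.4, 82 and 80.4 CPM against 35.9, 36 and 33.7 CPM (-1.21, SE 0.10, adjusted p = 1.91e-05). Libraries within a group differed by little beside the gap for both. Among 30 tested adhesion genes, 10 were lower and 1 higher, with a median of -0.16. Lgals1, a galactoside-binding lectin, and Tspan4, a tetraspanin, had log2 fold changes of -1.39 (SE 0.12) and -1.42 (SE 0.12). Vcam1, an adhesion molecule that binds leukocyte integrins, had one of -0.51 (SE 0.09). Ctsc, a lysosomal protease, stood at 127, 115 and 113 CPM against 30.1, 27.1 and 31.2 CPM (adjusted p = 6.19e-07). Of 36 tested lysosome and autophagy genes, a list without Ctsc, 8 were lower and 0 higher, as in DESeq2 (13 at an unadjusted p under 0.05, median -0.07), a count of 5 without 2X PBS replicate 3 or 2X cytokine replicate 3. Stra6, the receptor that takes up retinol, stood at 106, 85.1 and 103 CPM against 29.7, 23.2 and 26.9 CPM (-1.86, SE 0.13, adjusted p = 3.98e-06).

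Lipid mediator genes split by enzyme. Of 21 tested prostaglandin and eicosanoid genes, 5 were lower and 1 higher, with a median of -0.46. Ptgs2, the inducible cyclooxygenase, stood at 44.8, 59.8 and 45.2 CPM in 2X PBS and at 12.8, 16.3 and 15.1 CPM in 2X cytokine (-1.78, SE 0.17, adjusted p = 4.09e-05). Ptges, which makes prostaglandin E2 from its product, stood at 83.1, 73.5 and 79.5 CPM against 41.4, 36.4 and 29.4 CPM (-1.14, SE 0.13, adjusted p = 0.00021). Successive enzymes of this route fell together. Pla2g7, which degrades platelet-activating factor, was higher, at 776, 1017 and 1013 CPM against 1669, 1563 and 1472 CPM (0.74, SE 0.11, adjusted p = 0.0016). Alox5ap, needed for leukotriene synthesis and known mainly from leukocytes, fell by 3.90 on the log2 scale (SE 0.25).

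Some genes of resting astrocytes were modestly higher. Of 30 tested homeostatic astrocyte genes, 10 were higher and 0 lower, while DESeq2 called 12 higher and 0 lower, 19 had an unadjusted p under 0.05, and the median log2 fold change was 0.26; without 2X PBS replicate 2 the count was 6. Bcan, the proteoglycan brevican of perineuronal nets, stood at 1034, 971 and 1055 CPM in 2X PBS and at 1789.8, 1640 and 1589 CPM in 2X cytokine (0.71, SE 0.09, adjusted p = 0.000372). Sparcl1, a secreted protein that promotes synapse formation, stood at 3914, 4448 and 4995 CPM against 7172, 7016 and 6113 CPM (0.60, SE 0.11, adjusted p = 0.00404). S1pr1, a receptor for sphingosine 1-phosphate, stood at 864, 872 and 1002 CPM against 1437, 1291 and 1294 CPM (0.55, SE 0.10, adjusted p = 0.00345). Every cytokine library exceeded every PBS library for these 3 genes, and each change was under 2-fold. The astrocyte markers Aldh1l1, Slc1a2, Slc1a3, Aqp4, Gja1, Gjb6, Sox9 and Fgfr3 of this list did not pass. Slc7a10, Aldoc and Acsbg1 of this list count also under glycine handling, glycolysis and fatty acid synthesis. Of 21 tested endfoot genes for water, potassium and gap junctions, 4 were lower and 0 higher, with a median of 0.12. DESeq2 called 2 of them lower and 3 higher, and without single libraries the lower count ran from 1 to 3.

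Transporters and enzymes of serine and glycine were among the higher genes. Of 27 tested genes for handling glutamate, GABA and glycine, 7 were higher and 2 lower, with a median of 0.21; without 2X PBS replicate 2 or 2X cytokine replicate 1 the higher count was 4. Phgdh, the first enzyme of serine synthesis, stood at 341, 327 and 373 CPM in 2X PBS and at 519, 495 and 481 CPM in 2X cytokine (0.52, SE 0.09, adjusted p = 0.00321). Psat1, the next enzyme of that route, stood at 208, 214 and 230.3 CPM against 343, 304 and 298 CPM (0.53, SE 0.09, adjusted p = 0.0037). Slc6a9, the glycine transporter GlyT1, and Slc7a10, which carries small neutral amino acids such as serine and glycine, had log2 fold changes of 0.58 (SE 0.10) and 0.46 (SE 0.09). Slc6a6, the taurine transporter, moved the other way (-0.81, SE 0.11).

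Lipoprotein genes rose in a few members only. Of 21 tested genes of cholesterol export and lipoproteins, 3 were higher and 1 lower, with a median of 0.06. Pltp, the phospholipid transfer protein, stood at 519.8, 549 and 579 CPM in 2X PBS and at 780.3, 805 and 786 CPM in 2X cytokine (0.53, SE 0.09, adjusted p = 0.00244). Lcat, which esterifies cholesterol on lipoproteins, stood at 348, 396 and 438 CPM against 825, 605 and 650.2 CPM (0.81, SE 0.13, adjusted p = 0.00175). Slc16a3, the lactate exporter MCT4, fell by 2.79 on the log2 scale (SE 0.27), the only lower gene among 28 tested for glycolysis, glycogen and lactate. The 3 higher genes of that list, Aldoc, Eno1 and Pygb, did not pass without 2X PBS replicate 1 or 2 or 2X cytokine replicate 1. No gene of cholesterol synthesis (24 tested), fatty acid oxidation (26), the nuclear-encoded respiratory chain (33), DNA replication (30) or acetyl-CoA supply and histone acetyltransferases (21) was called in edgeR. DESeq2 called 1 lower gene in fatty acid oxidation, 1 higher gene in acetyl-CoA supply and 0 in the other 3 lists. At an unadjusted p under 0.05 these lists held 2, 4, 2, 0 and 1 genes, and their medians lay between -0.03 and 0.07.

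Other genes that rose belong to none of these lists. Disp3, a patched-domain protein of the endoplasmic reticulum, stood at 13.8, 19 and 18.4 CPM in 2X PBS and at 71.5, 61.2 and 56.9 CPM in 2X cytokine (1.85, SE 0.15, adjusted p = 1.17e-05). Paqr6, a membrane progestin receptor, stood at 152, 164 and 169.8 CPM against 385, 335 and 311 CPM (1.08, SE 0.10, adjusted p = 3.78e-05). Tprkb, a partner of the kinase TP53RK, stood at 61.2, 80.9 and 73.4 CPM against 154, 153 and 157 CPM (1.09, SE 0.11, adjusted p = 5.53e-05). Each of these genes rose by more than 1 on the log2 scale, with no overlap between groups. Apln, the vascular peptide apelin, stood at 33.2, 40.3 and 38.8 CPM against 70.8, 75.1 and 67.1 CPM (0.90, SE 0.11, adjusted p = 0.000422). Them4, a mitochondrial acyl-CoA thioesterase, and Grip2, whose protein is a scaffold of AMPA receptors, had log2 fold changes of 1.31 (SE 0.17) and 1.15 (SE 0.14). Most Grip2 counts were assigned to Grip2-204, a transcript annotated as nonsense-mediated decay and not as protein-coding. Its mean share was 90.3% in 2X PBS and 93.7% in 2X cytokine, so the rise of Grip2 does not show a rise of coding transcript. In the clock list, Arntl, which encodes the factor BMAL1, was 1 called gene of 20 tested, a share below the 7.74% over all genes, at 29.7, 29.1 and 31.3 CPM against 47.3, 49.6 and 50.7 CPM (0.71, SE 0.12, adjusted p = 0.00237).

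**Figure D4:**
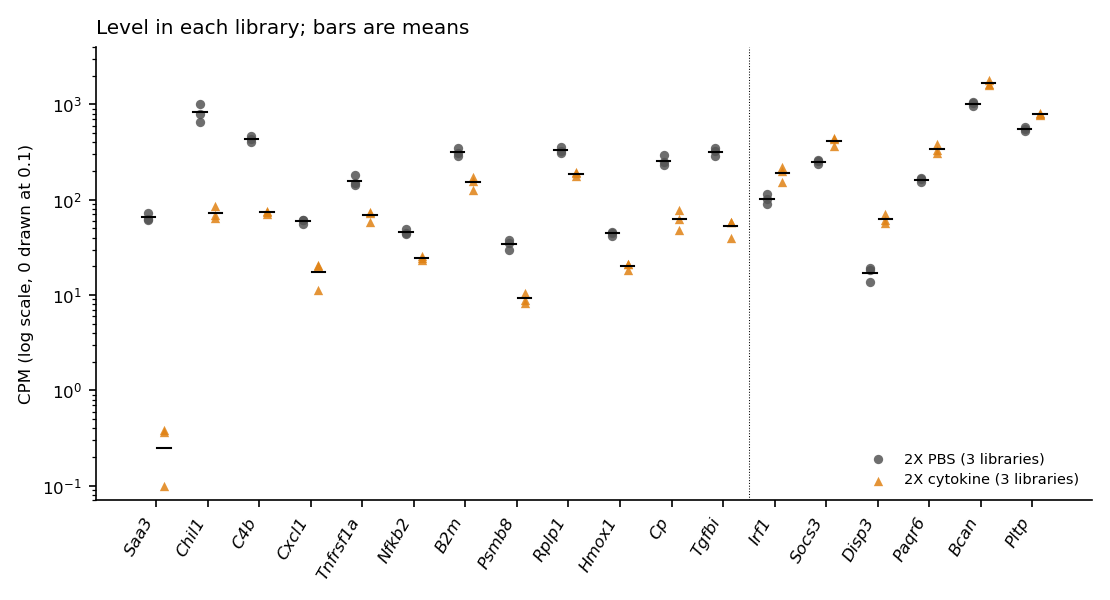
Level of 18 genes in each library, in CPM on a log axis, with 0 drawn at 0.1; circles are 2X PBS, triangles 2X cytokine and bars group means. The 12 genes left of the dotted line are lower in every cytokine library (C4b at 70.8 to 76.7 against 407 to 467 CPM) and the 6 genes right of it are higher (Paqr6 at 311 to 385 against 152 to 169.8 CPM).

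Myelin genes of oligodendrocytes were also higher. Of 13 tested oligodendrocyte markers, 8 were higher and 1 lower, with a median of 0.75; without 2X PBS replicate 2 the higher count was 5. Mbp, myelin basic protein, stood at 574, 437 and 379.9 CPM in 2X PBS and at 1169, 1364 and 690.3 CPM in 2X cytokine (1.21, SE 0.21, adjusted p = 0.00395). Cnp, the myelin enzyme of that name, stood at 1013, 911 and 1007 CPM against 1597, 1508 and 1558 CPM (0.67, SE 0.09, adjusted p = 0.000498). Values did not overlap for either gene, though the spread of Mbp within the cytokine group was wide. Trf, transferrin, which counts both as a marker here and as a metal gene, was the lower one, at 5461, 4145 and 4341 CPM against 3063, 3057 and 2984 CPM (-0.62, SE 0.11, adjusted p = 0.00384). The summed markers overlapped, at 7517 to 10091 CPM in 2X PBS and 9057 to 10324 CPM in 2X cytokine. Trf held a large part of these sums and moved against the 8 higher markers, so the overlap does not describe the other markers. Of the 13, 9 were higher and 1 lower with no overlap between groups, against 1694 and 1857 of 13765 over all genes tested. Whether more oligodendrocytes or more RNA per cell were present cannot be told apart.

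Among the 731 lower genes 37 do not code for protein, and among the 334 higher genes 8 do not. Such genes are few among those tested, as a fit of coding genes alone tested 12782 genes, against 13765 here. The share of them that was called was not computed, so these counts do not show them called more often than other genes. Gm20400, an antisense gene on chromosome 6, stood at 23.3, 22.8 and 21.1 CPM in 2X PBS and at 5.13, 5.42 and 3.71 CPM in 2X cytokine (-2.24, SE 0.22, adjusted p = 5.82e-05). Gm37347, annotated as a gene of type TEC on chromosome 1 between Il1r2 and Il1r1, stood at 17.2, 13 and 6.62 CPM against 0 in every cytokine library, at least 35-fold lower against 3 counts over the group. Genes of that stretch overlap, and the reads of overlapping or antisense genes cannot be told apart without strand.

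The same contrast after a single injection was set beside these values. The 1X and 2X comparisons have separate control libraries. Over all 12 libraries, no gene differed between the 2X and the 1X response in edgeR (0 of 14490, 0%), with 754 genes at an unadjusted p under 0.05 and 13 genes called by DESeq2. On the scale of the 12 libraries, Chil1 stood at 94.7, 1187 and 683 CPM in the 1X PBS libraries and at 753, 51.1 and 86.8 CPM in the 1X cytokine libraries. Paqr6, higher after 2 injections, stood at 389, 72.6 and 74.7 CPM against 87, 251 and 315 CPM. Rplp1 stood at 215, 391 and 413 CPM against 346, 205 and 224 CPM. For all 3 genes the first library of each 1X group stood nearer to the other label's libraries, and the groups overlapped. Socs3 stood at 261, 367 and 361 CPM in 1X PBS and at 289, 244 and 252 CPM in 1X cytokine, while its 2X ranges were 232 to 252 CPM in PBS and 355 to 433 CPM in cytokine. The common coefficient of variation of the fit was 0.237 over 12 libraries and 0.114 over the 6 libraries. Leaving out both of these 1X libraries, a choice made from their values after seeing the data, gave 1386 genes that differed between the responses, so the count depends on which 1X libraries are kept.

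**Figure D5:**
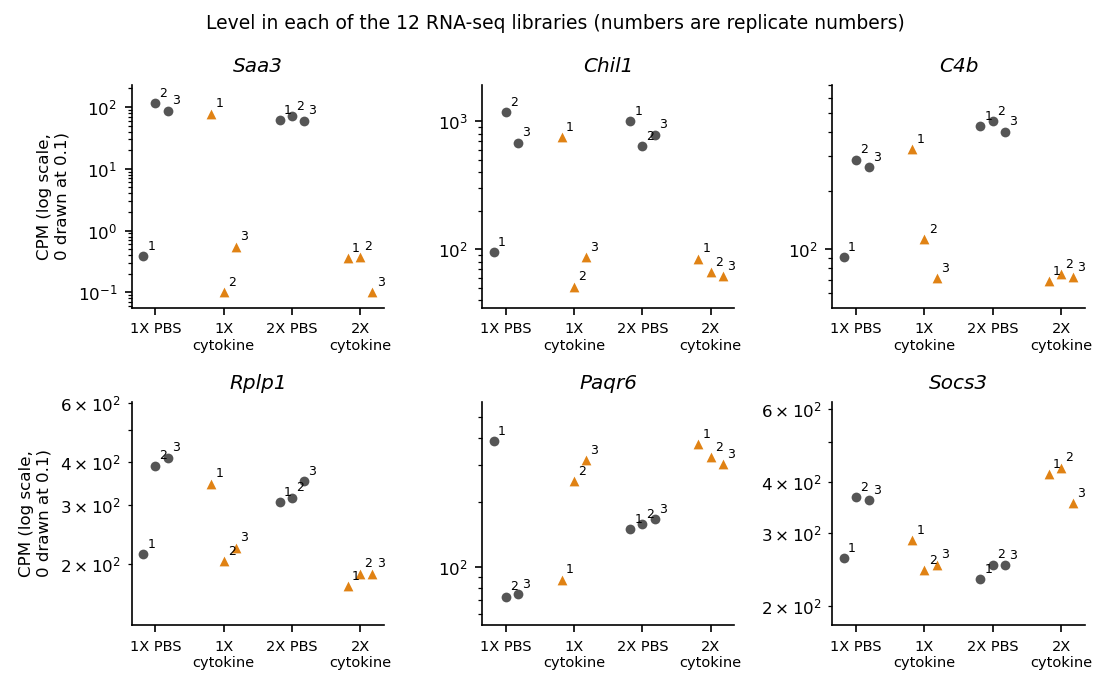
Level of 6 genes in each of the 12 RNA-seq libraries, in CPM on a log axis with 0 drawn at 0.1; circles are PBS, triangles cytokine and digits replicate numbers. In the 1X groups the library numbered 1 lies with the other label for Saa3, Chil1, C4b, Rplp1 and Paqr6 (Chil1 at 94.7 CPM among PBS values of 1187 and 683), while the 2X groups do not overlap for any of the 6 genes.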

How the data were processed

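RNA was measured with SMART-Seq2 libraries of sorted astrocytes. Transcripts were quantified with kallisto 0.46.1 against the GRCm38 transcriptome, per the labels' protocols. The deposited tables give, per the file headers, an estimated count, a TPM value, a length and an effective length for each of 142604 transcripts. Estimated counts were summed per gene and rounded. Genes were kept by filterByExpr, scaled by TMM and tested with edgeR 4.0.16 (quasi-likelihood, R 4.3.3) on the 6 libraries, with Benjamini-Hochberg adjustment over all genes and a threshold of 0.05. Each standard error was computed as the absolute log2 fold change over the square root of the F statistic. CPM values use TMM-scaled totals. Floors (3 counts) cover counting error only, while the standard errors include the spread between libraries as fitted. Named genes were taken from the 20 largest changes and 15 smallest adjusted p per direction among coding genes (mean of at least 5 and 50 CPM), up to 5 members per function list and per cell type list by adjusted p or level, the 5 largest changes per direction among other genes, and a panel of 13 genes. Some further genes, among them members of chromosomal runs, were named after their values were seen. The members and lists were chosen with earlier results of these data known. Positions for 54349 of 55401 genes (98.1%) came from the GENCODE M21 annotation. Samples were grouped by title. Alternatives were DESeq2 1.42.0, other scalings and filters, limma 3.58.1 on log2(TPM + 1) and log2(TPM + 0.1), voom weights, coding genes only, a length offset, a replicate block, all 12 libraries and each library left out. The test was checked on simulated data. The 19 ATAC-seq samples were not analysed here.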

Additional observations from a re-analysis of the deposited data

How the results depend on the processing

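Of the 1065 genes called (731 lower, 334 higher), DESeq2 called 869 among its 925, and no gene shared with an alternative changed sign. Counts moved by over 1.5 times with no filter on low counts (1691, with 1158 lower and 533 higher), in the fit of all 12 libraries (5, with 5 lower and 0 higher), in limma-trend on log2(TPM + 1) (347, with 275 lower and 72 higher) or log2(TPM + 0.1) (317, with 248 lower and 69 higher), and with effective length as an offset (596, with 446 lower and 150 higher); the cause was not tested, beyond the larger coefficient of variation of the 12-library fit. In limma-trend on log2(TPM + 1) the lower counts were 1 for NF-κB genes, 2 for innate sensing, 0 for guanylate-binding GTPases, 1 for matrix genes, 1 for lysosome genes, 8 for actin genes, 3 for adhesion genes, 5 for matrix proteases, 4 for interferon-stimulated genes and 4 for MHC class I, and the higher counts 1 for oligodendrocyte markers, 1 for glutamate, GABA and glycine handling and 6 for homeostatic astrocyte genes. Leaving out 1 library gave 670 to 931 genes, 490 to 687 lower and 139 to 301 higher. The total also moved by over 1.5 times without 2X PBS replicate 2 (671) or 3 (670). The higher count did so without any 2X PBS replicate or 2X cytokine replicate 1 (139 to 206), and with a replicate block (201). The glycolysis genes Aldoc, Eno1 and Pygb did not pass with a replicate block. Replicate numbers did not pair the libraries (correlations of same-numbered deviations -0.035, -0.0606 and -0.00203), and the fit with a replicate block gave 794 genes, 593 lower and 201 higher. Among single genes, Rela changed sign, from 0.04 to -0.03 without 2X PBS replicate 2 and to -0.02 without 2X cytokine replicate 2, without passing the test. For the difference between the 2X and 1X responses, DESeq2 called 13 genes, the fit with no filter 70 and the fits that leave out 1 library 0 to 17. With both 1X libraries numbered 1 left out, chosen after seeing the data, 1386 genes differed, and the 2X comparison in those 10 libraries called 1042 genes, 934 of them shared with the 6-library fit. Depth limits genes near 3 counts, which is 0.543 to 1.29 CPM in a library.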

Other observations

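Within some genes the share of counts assigned to each transcript also differed, given here as values with no test. Transcript Relb-203 held 90.8%, 82.9% and 90.8% of the Relb counts in 2X PBS and 14.8%, 15.8% and 14.9% in 2X cytokine, while Relb-201 held 0% in each PBS library and 66.5%, 77.5% and 69.4% in the cytokine libraries. These transcripts have nearly equal lengths (2203 and 2200 bases), and shares estimated between similar transcripts are uncertain. Chil1-201 held 84.3%, 92.8% and 89.2% of the Chil1 counts in 2X PBS and 34.1%, 35.3% and 56.3% in 2X cytokine. Cp-201, a transcript of ceruloplasmin, held 22.5%, 28.7% and 24.1% against 55.1%, 43.9% and 48.2%. Ifitm1-202 held 81.4%, 85.1% and 85.9% against 62.2%, 66.6% and 59.5%. In each case the libraries of the 2 groups did not overlap, but these genes were chosen from many without a rule. For many other transcripts of named genes the shares of the 2 groups overlapped. The uncertainty of such shares holds for every gene given here.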
